A study of Mus musculus with 9 samples.

Results

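A set of 9 imprinted genes with links to growth was followed across mouse hepatic stellate cells sorted by a WT1 reporter: H19, Dlk1, Gtl2 (also named Meg3), Peg3, Mest, Plagl1, Grb10, Ndn and Sgce. The members were chosen by name, through the gene symbol that the array's own annotation gives each probe. They were read by 23 of the 45281 gene probes of an Illumina mouse bead array, and 6 further probes that hold a member's name only among the synonyms of another gene (Aggf1 and Nckap1) were left out. Of the 23 probes, 11 were detected above the negative control probes on at least 3 of the 9 arrays and were tested, and they covered 7 of the 9 genes. Plagl1 and Sgce had no such probe.

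All 9 samples came from WT1GFP/+ animals labelled as male and of the strain C57/Bl6, although the study's methods name both sexes for cultured cells in general. In these animals GFP knocked into the Wt1 locus reports its activity, so every group carries 1 Wt1 allele with the reporter. Hepatic stellate cells are the perivascular, retinoid-storing cells of the liver that turn into scar-forming myofibroblasts after injury. The WT1-high and WT1-intermediate groups (labelled GFP high and GFP low, 3 arrays each) were isolated from livers chronically injured with carbon tetrachloride, a hepatotoxin given into the peritoneum. The WT1-negative group (labelled GFP negative, 3 arrays) was sorted from quiescent stellate cells of uninjured livers that had been activated by 7 days on plastic. The WT1-negative group therefore differs from the other groups in culture and in the lack of liver injury as well as in WT1, and these cannot be told apart. The WT1-high and WT1-intermediate arrays appear to come from 3 animals, so cells of both groups share an animal. The mean intensity of an array was 147 to 289, with 38.1% to 43.7% of the gene probes detected. Because RNA of sorted cells was measured in bulk, fewer cells of a type and less RNA per cell cannot be told apart. By the study's methods the replicates of cultured cells are independent cell isolations.

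Imprinted genes are expressed mainly from the allele of one parent, under differentially methylated control regions that often govern several neighbouring genes. Many are abundant in fetal tissues, fall after birth, and act on growth: paternally expressed genes such as Igf2 tend to promote it, and maternally expressed genes such as H19 and Grb10 tend to restrain it. An array reads the summed RNA of both alleles, so allele of origin was not measured here.

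The non-coding members are read by short probes alone, and their sequences are shown because what each probe matches decides which transcripts it can see. H19, a maternally expressed long non-coding RNA, had a pair of probes with no stretch of 20 bases in common. Gtl2, the maternally expressed long non-coding RNA of the Dlk1 domain, had 2 probes under that symbol and 3 under Meg3. All are 50 bases long and are written 5′ to 3′ as the array's annotation gives them, with capitals marking the stretch that a pair of probes shares.
H19, brighter probe: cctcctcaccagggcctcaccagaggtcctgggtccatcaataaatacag
H19, dimmer probe: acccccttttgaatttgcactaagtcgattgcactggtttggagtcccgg
Gtl2, brighter probe: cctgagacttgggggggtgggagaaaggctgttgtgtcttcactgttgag
Gtl2, dimmer probe: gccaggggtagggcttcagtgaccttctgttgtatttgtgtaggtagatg
Meg3, probe A: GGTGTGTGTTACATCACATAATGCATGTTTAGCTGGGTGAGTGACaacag
Meg3, probe B: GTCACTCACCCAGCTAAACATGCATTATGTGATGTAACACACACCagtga
Meg3, probe C: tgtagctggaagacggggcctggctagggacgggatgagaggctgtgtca
Meg3 probes A and B are reverse complements of each other over 45 of 50 bases, so at most one of them matches the sense strand, and neither was detected on any array. The sequences also show that a pair of Mest probes covers nearly the same place, since they share 49 of 50 bases on the same strand.

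H19 also hosts a microRNA, miR-675, which is cut from its first exon and has been linked to its restraint of growth. Its mature strands lie on the minus strand of chromosome 7 in RefSeq's GRCm38.p6, at chr7:142577112-142577133 for the 5p and chr7:142577078-142577099 for the 3p strand, with the seed (bases 2 to 8) in capitals.
mmu-miR-675-5p: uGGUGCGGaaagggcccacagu
mmu-miR-675-3p: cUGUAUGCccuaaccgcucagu
The array held 0 probes for this microRNA or for miR-335, which lies within Mest, so their levels were not measured, and the H19 values below are those of the long transcript.

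Levels are given as log2 normalised intensity, in which a step of 1 is a doubling, and levels of different probes are not compared with each other. A probe at about 4.5 lies at the detection limit, the lowest signal called above the negative controls, which was 4.48 to 4.65 on the 9 arrays. A difference was called when its Benjamini-Hochberg adjusted p over all 20573 tested probes, from limma, was below 0.05.

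Against WT1-negative cells, H19, Peg3, Mest and Dlk1 were lower in both WT1-positive groups, Ndn was higher in both, Grb10 was higher in WT1-high cells by its main probe, and Gtl2 was not called. For WT1-high cells 6 of the 7 tested members were called, 4 lower and 2 higher, where 59.6% of all tested probes were called, 33.1% lower and 26.5% higher. In WT1-intermediate cells 5 of 7 were called, 4 lower and 1 higher, where 58% of all tested probes were called, 33.6% lower and 24.4% higher. So many probes differ in these comparisons that a call is not in itself particular to these genes. These 7 genes' median difference was -1.41 in the first comparison and -1 in the second, beside -0.10 and -0.13 over all tested probes. The levels of the groups did not overlap for 6 of the 7 members in each comparison, as for 68.4% of all tested probes in the first and 65.5% in the second. Both comparisons use the same WT1-negative arrays.

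**Figure D1:**
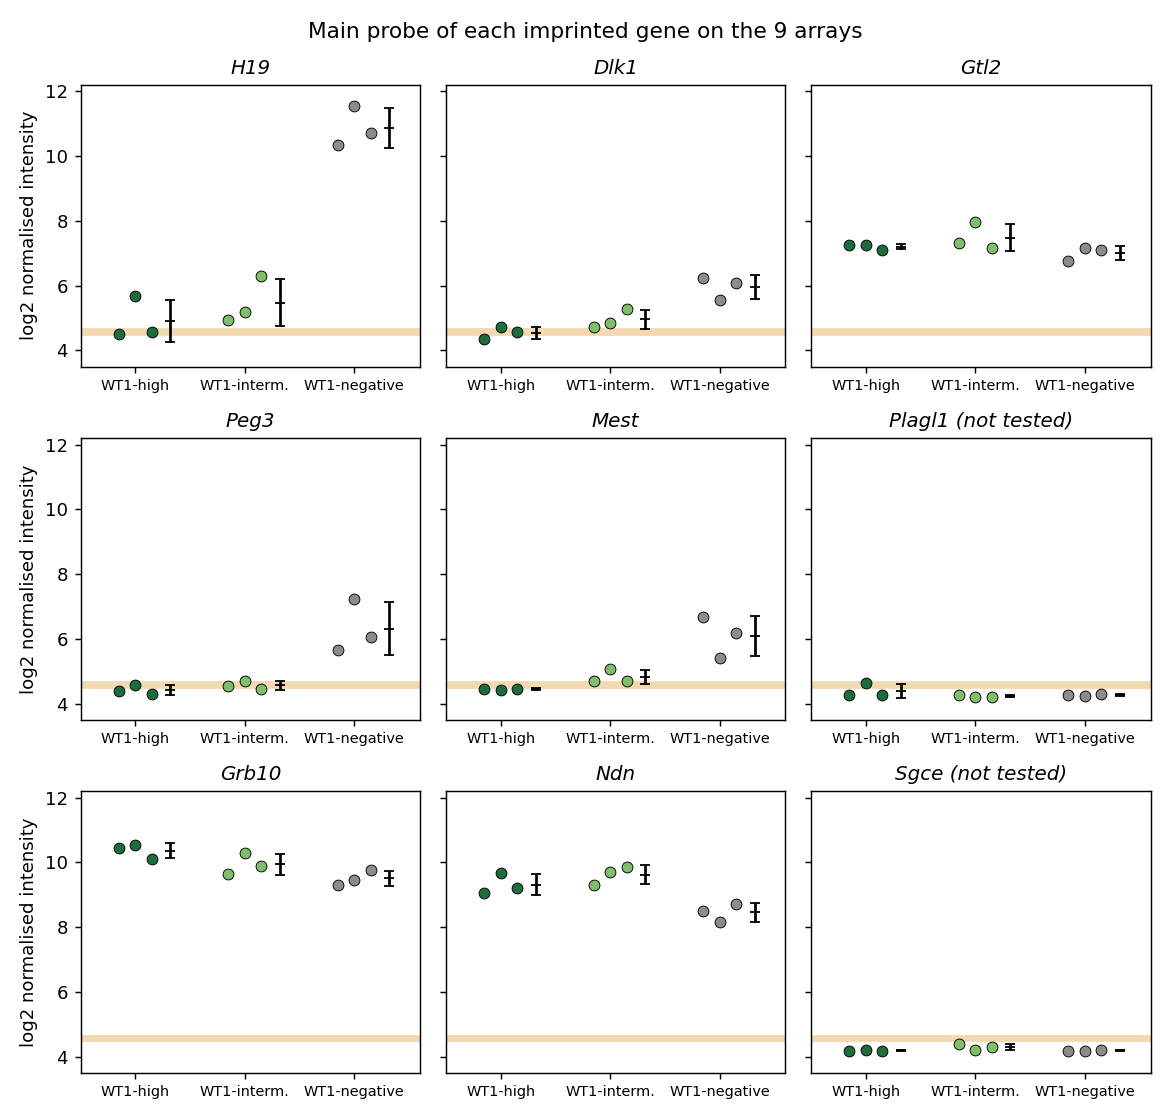
Log2 normalised intensity (y axis) of the main probe of each of the 9 genes on the 9 arrays, with WT1-high, WT1-intermediate and WT1-negative cells along the x axis, 3 arrays each. Points are arrays, bars are the mean ± SD and the band is the detection limit of 4.48 to 4.65. H19 in WT1-negative cells lies at 10.34 to 11.54, above every WT1-positive array, while Plagl1 and Sgce stay at the band or under it.

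H19 showed the widest range of the members. Its brighter probe read 4.49, 5.67 and 4.57 on the WT1-high arrays, 4.94, 5.20 and 6.29 on the WT1-intermediate arrays, and 10.34, 11.54 and 10.71 on the WT1-negative arrays. The WT1-negative arrays stood far above all 6 others, which ran from the detection limit up to 6.29. The WT1-high and WT1-intermediate arrays overlapped with each other. H19 was 62-fold lower in WT1-high than in WT1-negative cells (log2 difference -5.95, SE 0.42, adjusted p = 5.1e-07). It was 41.9-fold lower in WT1-intermediate cells (log2 difference -5.39, SE 0.42, adjusted p = 1.3e-06). The probe was detected on 2 of 3 WT1-high arrays and on all 3 arrays of each other group. The dimmer H19 probe read 4.37, 4.81 and 5.00 in WT1-high, 4.27, 4.97 and 5.47 in WT1-intermediate, and 8.98, 10.09 and 8.93 in WT1-negative cells. It gave the same direction, with log2 differences of -4.61 (adjusted p = 9.8e-07) and -4.43 (adjusted p = 1.6e-06). Between the WT1-positive groups the brighter probe differed by -0.57 (95% interval -1.48 to 0.35, adjusted p = 0.53), which did not exceed the spread between arrays.

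Igf2, the paternally expressed growth factor that shares H19's control region, had 1 probe, and it moved the same way. Its levels were 6.22, 6.00 and 6.68 in WT1-high, 6.39, 5.90 and 6.25 in WT1-intermediate, and 10.65, 10.98 and 11.08 in WT1-negative cells. It was 24.4-fold lower in WT1-high (adjusted p = 2e-08) and 26.5-fold lower in WT1-intermediate cells (adjusted p = 2.3e-08). Igf2r, the maternally expressed receptor that clears Igf2, differed by -0.47 and -0.49 by its brighter probe, which was not called (adjusted p = 0.07 and 0.064). Its other tested probe, at -0.47 and -0.46, was called lower in both (adjusted p = 0.036 and 0.041).

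Dlk1 and Gtl2 share a domain on chromosome 12 with opposite parental expression, and their levels did not move alike. Dlk1, a membrane protein of the Notch ligand family that holds back differentiation of fat cells, read 4.35, 4.71 and 4.56 in WT1-high cells. Its levels were 4.73, 4.84 and 5.29 in WT1-intermediate and 6.25, 5.54 and 6.07 in WT1-negative cells, so the groups were ordered without overlap, although the WT1-positive levels were close to the detection limit. The probe was detected on 1 WT1-high array and on all arrays of the other groups, so the fold in WT1-high cells is over a level mostly at the limit. Dlk1 was 2.66-fold lower in WT1-high (log2 difference -1.41, SE 0.21, adjusted p = 0.00018) and 2-fold lower in WT1-intermediate cells (-1, SE 0.21, adjusted p = 0.002). The step of -0.41 from WT1-intermediate down to WT1-high cells was not called (95% interval -0.88 to 0.06, adjusted p = 0.36). The second Dlk1 probe was detected on 1 array and was not tested. Gtl2 read 7.25, 7.26 and 7.11 in WT1-high, 7.32, 7.96 and 7.17 in WT1-intermediate, and 6.77, 7.16 and 7.09 in WT1-negative cells, well above the detection limit on every array. Its differences from WT1-negative cells were 0.20 (95% interval -0.25 to 0.66, adjusted p = 0.41) and 0.48 (0.03 to 0.93, adjusted p = 0.066), and neither was called. The second rested on single arrays, being 0.64 and called without WT1-intermediate array 30 (adjusted p = 0.028) and 0.24 without WT1-intermediate array 8 (adjusted p = 0.25). The other 4 Gtl2 and Meg3 probes lay between 4.19 and 4.8 and were detected on at most 2 arrays. Dio3, the deiodinase that inactivates thyroid hormone at the far end of that domain, was detected on the WT1-negative arrays alone and was at least 2.04-fold lower in WT1-high and at least 2.02-fold lower in WT1-intermediate cells (adjusted p = 1.4e-05 and 1.1e-05). It passed the filter only through the WT1-negative arrays, so its being lower was fixed by that filter.

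Peg3 and Mest are paternally expressed genes of the fetal growth network, Peg3 a zinc finger protein and Mest a hydrolase-like protein of mesoderm and fat. Peg3 read 4.4, 4.58 and 4.29 in WT1-high cells and 4.53, 4.70 and 4.44 in WT1-intermediate cells, all near the detection limit. On the WT1-negative arrays it read 5.65, 7.23 and 6.05, and no array of that group fell among the others. It was 3.69-fold lower in WT1-high (log2 difference -1.88, SE 0.32, adjusted p = 0.00037) and 3.37-fold lower in WT1-intermediate cells (-1.75, SE 0.32, adjusted p = 0.00067). The probe was detected on 1 WT1-high, 2 WT1-intermediate and all 3 WT1-negative arrays, so both folds are over levels at the limit, and the other 2 Peg3 probes were not tested.

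Mest was the member with the most tested probes, 3 of 3. Its main probe read 4.45, 4.41 and 4.46 in WT1-high, 4.70, 5.08 and 4.70 in WT1-intermediate, and 6.66, 5.42 and 6.18 in WT1-negative cells. It was detected on no WT1-high array, so only a bound can be given there, at least 2.91-fold lower than in WT1-negative cells (adjusted p = 0.00024). In WT1-intermediate cells it was 2.4-fold lower (log2 difference -1.26, SE 0.26, adjusted p = 0.0016). The groups were again ordered without overlap, as for Dlk1, but the step between the WT1-positive groups was not called (-0.39, 95% interval -0.96 to 0.19, adjusted p = 0.49). The other Mest probes, which nearly coincide, were lower as well. Each was detected on at most 1 array of either WT1-positive group and on all 3 WT1-negative arrays. They passed the filter only through the WT1-negative arrays, so their direction is not separate support. Their mean WT1-positive levels lay at the detection limit or under it. One differed from WT1-negative cells by -1.77 for WT1-high and -1.83 for WT1-intermediate arrays (adjusted p = 4e-05 and 3.8e-05). The other was at least 2.03-fold lower in WT1-high cells (adjusted p = 0.0021) and differed by -1.05 in WT1-intermediate cells (adjusted p = 0.0086). Neither of them kept the order of the WT1-positive groups without overlap. With the arrays scaled to the median of the probes detected on all of them, the calls in WT1-intermediate cells were lost for Mest (-0.71, adjusted p = 0.053) and for Dlk1 (-0.53, adjusted p = 0.1). The sizes printed for these dim genes depend on the background step. With an offset of 50 the differences of WT1-high from WT1-negative cells were -0.75 for Dlk1, -1.06 for Peg3 and -0.89 for Mest, and with no background correction they were -0.44, -0.66 and -0.53, all still called. H19 came to -4.87 and -4 under the same settings. Copg2, a vesicle coat gene that lies beside Mest, differed by -0.78 and -0.91 (adjusted p = 0.00038 and 0.00014).

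Ndn and Grb10 were bright in every group. Ndn encodes necdin, a paternally expressed growth suppressor of the MAGE family from the Prader-Willi region. It read 9.06, 9.67 and 9.22 in WT1-high, 9.31, 9.71 and 9.86 in WT1-intermediate, and 8.49, 8.15 and 8.73 in WT1-negative cells. Every WT1-positive array lay above every WT1-negative array, and the WT1-positive groups overlapped. Ndn was 1.81-fold higher in WT1-high (log2 difference 0.86, SE 0.22, adjusted p = 0.0054) and 2.25-fold higher in WT1-intermediate cells (1.17, SE 0.22, adjusted p = 8e-04). Both calls were lost with median scaling of the arrays (0.80, adjusted p = 0.051, and 0.42, adjusted p = 0.27). That setting moved the median over all probes to -0.44 in the second comparison, but left it at -0.07 in the first.

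Grb10, an adapter protein that damps signalling from the insulin and IGF1 receptors, gave different answers by probe. The bright probe read 10.46, 10.54 and 10.10 in WT1-high, 9.64, 10.30 and 9.88 in WT1-intermediate, and 9.31, 9.45 and 9.76 in WT1-negative cells. By it Grb10 was 1.82-fold higher in WT1-high than in WT1-negative cells (log2 difference 0.86, SE 0.20, adjusted p = 0.0036), and WT1-intermediate cells lay between, 0.43 above WT1-negative cells and not called (adjusted p = 0.087). That difference was 0.58 and called without WT1-intermediate array 1 (adjusted p = 0.038), and 0.26 without WT1-intermediate array 8 (adjusted p = 0.3). The dim Grb10 probe, at 4.59 to 5.29 on the 9 arrays and so near the detection limit, ran the other way in WT1-high cells (log2 difference -0.45, SE 0.15, adjusted p = 0.024) and differed by -0.08 in WT1-intermediate cells (adjusted p = 0.66). The third probe lay between 4.17 and 4.54 and was not tested. The direction of Grb10 in WT1-high cells thus holds for its bright probe alone. With median scaling that call was lost as well (0.83, adjusted p = 0.06).

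Plagl1, a zinc finger transcription factor that slows the cell cycle, was at the detection limit in all groups, with its 3 probes between 4.14 and 4.64 and no probe detected on more than 1 array. Sgce, the epsilon subunit of the sarcoglycan complex that anchors muscle cells to the matrix, lay between 4.18 and 4.39 on its single probe and was detected on 0 arrays. Neither gene was measurable here, which does not show that it is silent. Over all 12 probes that were not tested, levels ran from 4.14 to 4.8 and no probe was detected on more than 2 arrays.

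**Figure D2:**
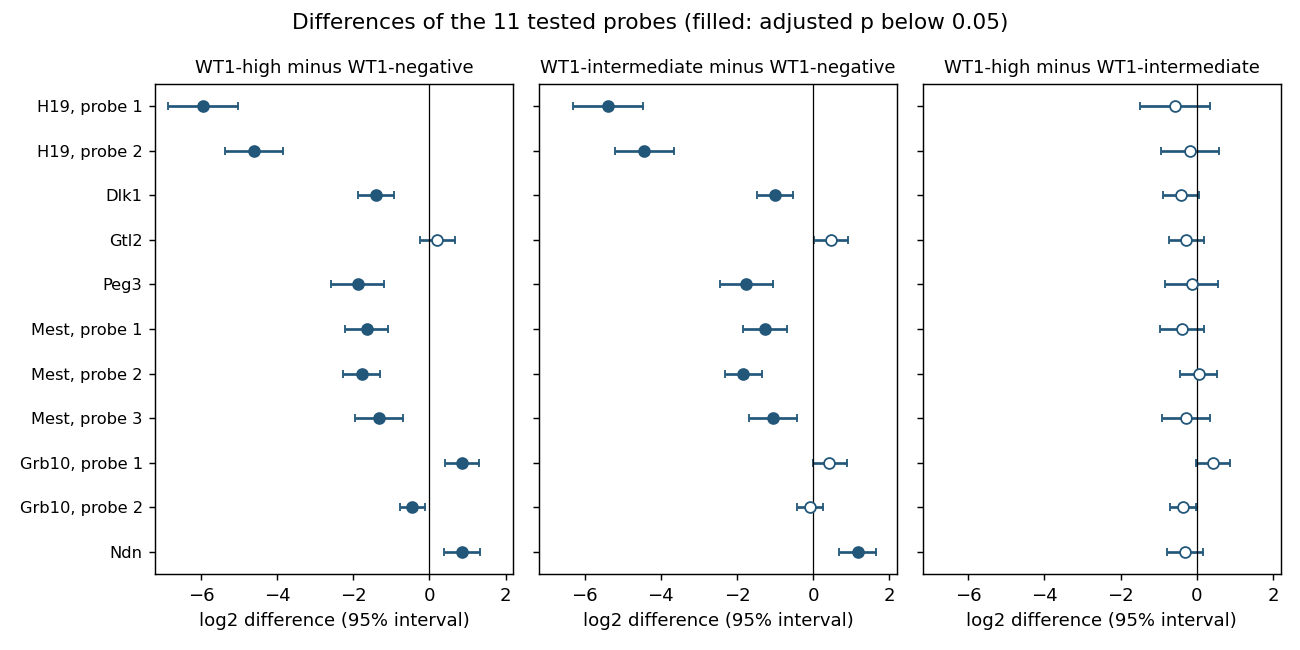
Log2 differences (x axis) with 95% intervals for the 11 tested probes of the 7 measurable genes (rows), in 3 panels for WT1-high minus WT1-negative, WT1-intermediate minus WT1-negative, and WT1-high minus WT1-intermediate. Filled points have an adjusted p below 0.05. Every probe of H19, Dlk1, Peg3 and Mest lies left of 0 in the first 2 panels, from -5.95 to -1, while no point in the third panel is filled.

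Within the injured liver WT1-high cells were compared with WT1-intermediate cells. None of the 7 members was called by limma, with differences from -0.57 (H19) to 0.43 (Grb10), a smallest adjusted p of 0.31, and 0 members with an unadjusted p below 0.05 by their main probes. The dim Grb10 probe differed by -0.37, against the bright one (unadjusted p = 0.033, adjusted p = 0.24). In that comparison 3.55% of all tested probes were called, 0.904% higher and 2.64% lower, and the median of the members was -0.31 beside 0.05 over all tested probes. The levels of 2 of 7 members, Dlk1 and Mest, did not overlap, as for 20.1% of all tested probes. The intervals leave room for differences as far as -1.48 on the log2 scale in H19 and 0.87 in Grb10. With median scaling, Grb10 was called higher in WT1-high cells (1.13, adjusted p = 0.048), but that scaling moved the median of all probes to 0.45.

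By their main probes the order of the group means was the same for H19, Dlk1, Peg3 and Mest: lowest in WT1-high, then WT1-intermediate, then WT1-negative cells. The means were 4.91, 5.48 and 10.87 for H19, 4.54, 4.95 and 5.95 for Dlk1, 4.42, 4.55 and 6.31 for Peg3, and 4.44, 4.82 and 6.09 for Mest. In each of these the difference between the WT1-high and WT1-intermediate means was not called, although the levels of Dlk1 and of the main Mest probe did not overlap. Ndn ran from 8.46 in WT1-negative through 9.31 in WT1-high to 9.62 in WT1-intermediate cells, and Grb10 from 9.50 in WT1-negative through 9.94 in WT1-intermediate to 10.37 in WT1-high cells. For Gtl2 the means of 7.00, 7.21 and 7.48 in WT1-negative, WT1-high and WT1-intermediate cells were not called apart, although the WT1-intermediate and WT1-negative levels did not overlap.

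The genes whose centred levels over the 9 arrays were nearest to each member were Msr2 and Mylpf for H19 (root mean square differences of 0.54 and 0.60 on the log2 scale), Tpp1 and Fam129a for Dlk1 (0.17 each), and 5730588I11Rik and Fgf21 for Peg3 (0.17 and 0.19). For Mest they were Rp23-357i14.1 and Clcn7 (0.17 and 0.19), for Ndn Olfml2b and P4ha1 (0.12 and 0.14), for Grb10 OTTMUSG00000004461 and Cd81 (0.09 and 0.11), and for Gtl2 Adamts10 and Centg3 (0.11 and 0.12). Mylpf is on the muscle marker list described next, while Msr2, which was nearer to H19, is on no marker list used here. Neither was as near to H19 as the genes named for the other members were to theirs. The muscle, proliferation and macrophage sums given below were all highest in WT1-negative cells, as H19 was, so this nearness does not single out muscle. The array's symbols are those of its design and some are old.

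Muscle and proliferation markers were low in WT1-positive cells, as H19, Peg3, Mest and Dlk1 were. The summed signal of 12 skeletal muscle and myoblast markers was 6890 to 10500 on the WT1-negative arrays, 199 to 491 on the WT1-high and 149 to 195 on the WT1-intermediate arrays. Of the 9 that were tested, 8 were called lower in WT1-high cells and all 9 were in WT1-intermediate cells. Over all tested probes 33.1% and 33.6% were called lower. Myod1, Myog, Myl1, Acta1, Tnnc1, Mylpf and Chrna1 passed the detection filter only through the WT1-negative arrays, so their being lower was fixed by that filter. The myogenic factors Myod1 and Myog were detected on all 3 WT1-negative arrays and on no WT1-positive array, while Myf5, Pax7 and Ckm were detected on no array at all. The summed signal of 10 proliferation markers was 2660 to 3360 in WT1-negative cells, 118 to 309 in WT1-high and 90.9 to 156 in WT1-intermediate cells, and all 8 tested were lower in both. Macrophage markers summed to 42200 to 48200, 4060 to 7100 and 14600 to 22700 in WT1-negative, WT1-high and WT1-intermediate cells, with all 12 on the array and 1 of them detected on no WT1-negative array. The single macrophage markers did not all follow that sum, with 7 lower and 2 higher in WT1-high cells but 4 lower and 4 higher in WT1-intermediate cells. The part of these in the levels of H19, Igf2, Peg3, Mest and Dlk1 was not tested.

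The summed stellate cell and mesothelial markers were higher in WT1-positive cells, as Ndn was. The 12 stellate cell markers summed to 4740 to 6360 in WT1-high, 4080 to 5950 in WT1-intermediate and 1520 to 2110 in WT1-negative cells. Of the 8 tested, 4 were higher and 2 lower in each comparison, with Pdgfrb lower in WT1-high cells, Des lower in WT1-intermediate cells and Ngfr lower in both. Ecm1, Cygb, Des, Pdgfrb and Reln were detected on every array, and Des is on the muscle list too. Gfap, Rgs5 and Vipr1 were detected on none, Lrat on 1 WT1-high array only, and Hand2 and Colec11 on no WT1-negative array. The labelled cell type is thus borne out only in part by this list. The 10 mesothelial markers summed to 27300 to 33400 in WT1-high and 16500 to 23100 in WT1-intermediate cells, against 114 to 184 in WT1-negative cells. All 10 were called higher for WT1-high arrays and 9 for WT1-intermediate arrays, where 26.5% and 24.4% of all tested probes were higher. Upk1b, Msln, Gpm6a, Dmkn, Krt19, Lrrn4 and Bnc1 passed the detection filter only with the help of WT1-positive arrays, so their being higher was fixed by that filter. Portal fibroblast markers also summed higher, at 8780 to 10700 in WT1-high, 8280 to 12100 in WT1-intermediate and 5400 to 7160 in WT1-negative cells. Of the 8 tested, 5 were higher and 1 lower in each comparison. Hepatocyte markers summed to 196 to 1260, 304 to 948 and 23.5 to 51.4 in the same groups. The part of these lists in the levels of Ndn and Grb10 was not tested either.

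**Figure D3:**
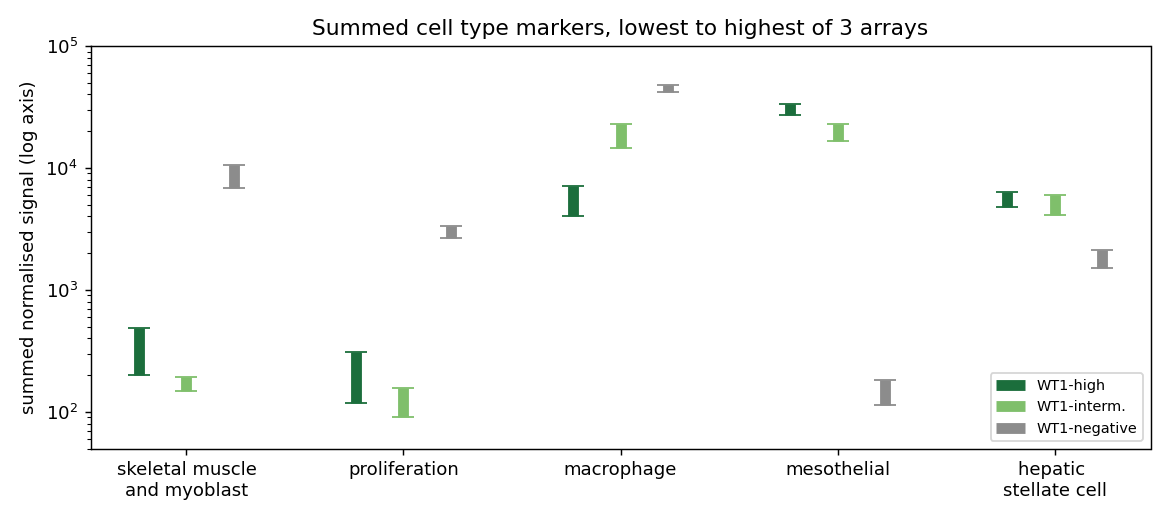
Summed background-corrected normalised signal (y axis, log scale) of 5 marker lists, with a bar from the lowest to the highest of the 3 arrays of each group. Muscle, proliferation and macrophage sums are highest in WT1-negative cells (6890 to 10500, 2660 to 3360 and 42200 to 48200), and mesothelial and stellate cell sums are lowest there (114 to 184 and 1520 to 2110).

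Imprinted genes outside the 9 members went both ways against WT1-negative cells. Of 54 listed, Igf2 among them, 47 were on the array and 30 could be tested, and 15 of them were higher and 5 lower in WT1-high than in WT1-negative cells. In WT1-intermediate cells 12 were higher and 6 lower. Their median differences were 0.45 and 0.35, beside -0.10 and -0.13 over all tested probes, and the shares called were 66.7% and 60%, near the 59.6% and 58% of all tested probes. None was called between the WT1-positive groups by limma. Some of those called against WT1-negative cells, such as Cobl, Phlda2 and Dio3, passed the detection filter only with the help of the arrays where they were higher. Their direction was fixed by that filter.

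Among 29 neighbours in the members' own domains, 12 were tested, with 4 higher and 4 lower in WT1-high cells and 3 higher and 5 lower in WT1-intermediate cells, a share called in each that is not far from that of all tested probes. Cobl, an actin nucleator beside Grb10, was 21.6-fold and 18.7-fold higher (adjusted p = 1.7e-07 and 3.1e-07), with 9.48, 9.00 and 8.63 in WT1-high, 8.67, 9.27 and 8.56 in WT1-intermediate, and 4.34, 5.05 and 4.44 in WT1-negative cells, where 1 of 3 arrays detected it and the fold is over a level at the limit. Ddc, the aromatic amino acid decarboxylase that also neighbours Grb10, rose by 0.60 and 0.45 (adjusted p = 0.0029 and 0.015). Ube3a, the ubiquitin ligase from the domain of Ndn, rose by 1.31 and 1.25 by its main probe (adjusted p = 4.1e-05 and 6.8e-05). Of its 3 tested probes, 1 other was called the same way in each, but no WT1-negative array detected it. It passed the filter only through the WT1-positive arrays, so its direction is not separate support. The remaining probe went the opposite way, by -0.61 and -0.72, and was called in WT1-intermediate cells (adjusted p = 0.051 and 0.027). Mkrn3 from the same domain was at least 1.15-fold lower in WT1-intermediate cells (adjusted p = 0.021), where no array detected it. In WT1-high cells it differed by -0.23 (adjusted p = 0.23). Pon2 and Pon3, lactonases beside Sgce, went opposite ways by their main probes. Pon2 was 2.75-fold and 2.35-fold lower (adjusted p = 7.2e-06 and 3.1e-05), and Pon3 rose 1.7-fold for WT1-high arrays (adjusted p = 0.015) and was 0.51 higher on the log2 scale in WT1-intermediate cells without a call (adjusted p = 0.085). Another Pon3 probe differed by 0.37 and 0.12 and was not called (adjusted p = 0.11 and 0.62). A further one, detected on 1 WT1-negative array, differed by 1.17 and 0.66 and was called in WT1-high cells alone (adjusted p = 0.0052 and 0.073). Peg10, which shares a promoter region with Sgce, was detected on no array.

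Of 25 imprinted genes of other domains, 18 were tested, and 11 were higher and 1 lower in WT1-high cells, 9 higher and 1 lower in WT1-intermediate cells. Over all tested probes 26.5% were higher and 33.1% lower in the first comparison, and 24.4% and 33.6% in the second. Phlda2, Nap1l5 and Zdbf2, and Slc38a4 in WT1-high cells, were among those called higher. They passed the detection filter only with the help of WT1-positive arrays, so their being higher was fixed by that filter. Whether these genes are imprinted in these cells was not measured. Dcn, a matrix proteoglycan, rose by 2.26 and 2.58 (adjusted p = 8.5e-06 and 4e-06) from 10.86, 10.5 and 11.49 in WT1-negative cells. Osbpl5, a lipid transfer protein, rose by 2.36 and 1.92 (adjusted p = 1.1e-06 and 6.3e-06), and Peg13, a non-coding RNA, by 1.57 and 1.58 (adjusted p = 3.6e-05 and 4.1e-05). Commd1 was lower by its main probe, at -0.66 and -0.69 (adjusted p = 0.0027 and 0.0022), but its other tested probe was called higher, at 0.52 and 0.63 (adjusted p = 0.026 and 0.01). Cdkn1c, the maternally expressed inhibitor of cyclin-dependent kinases, was 2.07-fold higher in WT1-intermediate cells (adjusted p = 0.0025), at 8.46, 8.89 and 9.13 against 7.62, 7.51 and 8.20 in WT1-negative cells. In WT1-high cells it read 8.00, 7.63 and 8.15, 0.15 above WT1-negative cells (adjusted p = 0.61). Its levels in the WT1-positive groups did not overlap, but the difference of -0.90 from WT1-intermediate to WT1-high cells was not called (adjusted p = 0.06).

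**Figure D4:**
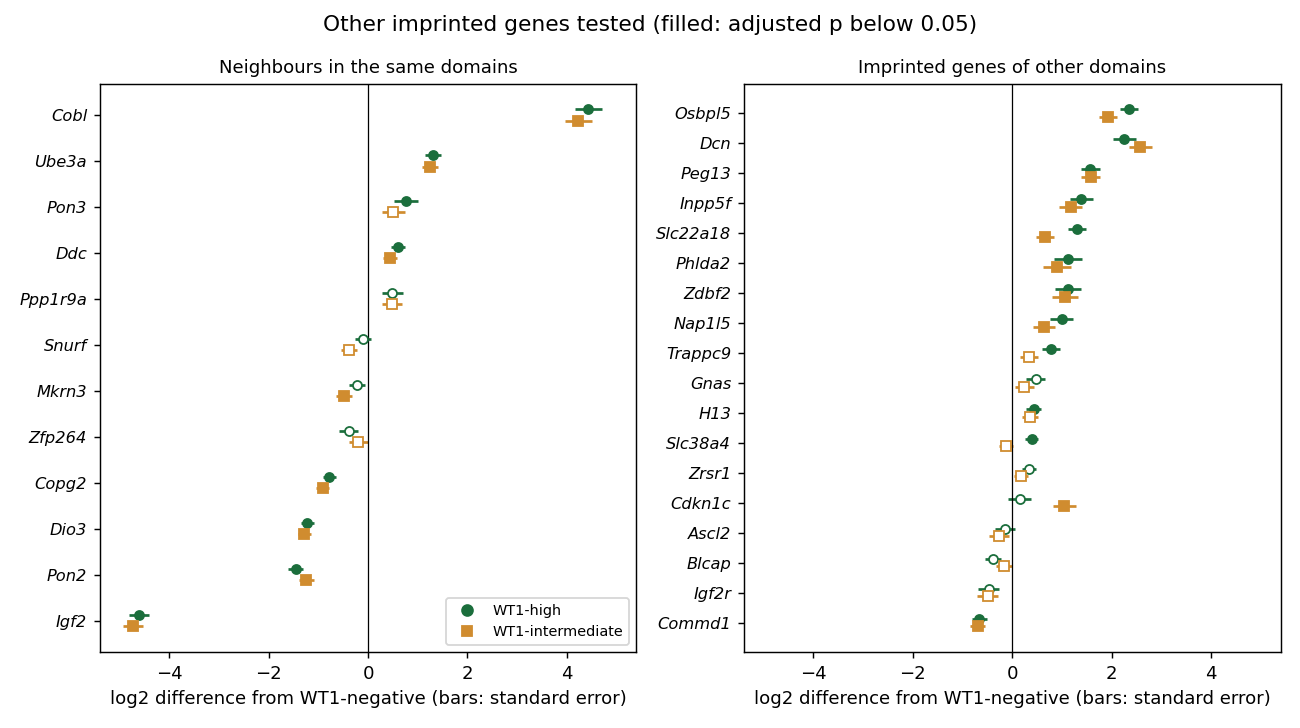
Log2 difference from WT1-negative cells (x axis, bars are standard errors) for the 12 tested neighbours in the members' domains (left) and the 18 tested imprinted genes of other domains (right), in WT1-high (circles) and WT1-intermediate cells (squares). Filled symbols have an adjusted p below 0.05. Igf2 lies at -4.61 and -4.73 and Cobl at 4.43 and 4.23, and most filled symbols on the right lie above 0.

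Of 19 partners and relatives of the members, 13 were tested, with 6 higher and 3 lower in WT1-high and 4 higher and 2 lower in WT1-intermediate cells. Over all tested probes 59.6% and 58% were called in these comparisons. Igf2bp3, a fetal RNA-binding protein that binds Igf2 transcripts, was detected on the WT1-negative arrays alone and was at least 2.59-fold and 2.57-fold lower (adjusted p = 2.8e-05 and 4.5e-05). Grb14, an adapter of the same family as Grb10, was detected on no WT1-negative array and was at least 2.37-fold and 1.93-fold higher (adjusted p = 4.1e-05 and 0.00024). Igf2bp3 and Grb14 each passed the filter only through the arrays where it was higher, so their direction was fixed by that filter. The other tested Grb14 probe, also detected on no WT1-negative array, differed by 0.74 and 0.26. It was called in WT1-high cells alone (adjusted p = 0.0014 and 0.16). Irs2, a docking protein of the insulin receptor, rose by 0.95 and 1.26 (adjusted p = 0.0033 and 0.00054). Dag1, the dystroglycan to which sarcoglycans attach, rose by 1.65 and 1.46 (adjusted p = 2e-04 and 0.00053), while its other tested probe differed by 0.47 and 0.21 and was not called (adjusted p = 0.12 and 0.49). Maged1, of necdin's own family, rose by 0.86 in WT1-high cells (adjusted p = 0.0012) and differed by 0.41 in WT1-intermediate cells (adjusted p = 0.055).

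Of 12 genes that keep imprinting marks 8 were tested, with 6 lower and 1 higher in WT1-high, and 5 lower and 1 higher in WT1-intermediate cells, where 33.1% and 33.6% of all tested probes were lower. Uhrf1, which brings the maintenance methyltransferase to newly replicated DNA, was 3.67-fold and 3.63-fold lower (adjusted p = 0.00018 and 0.00021). Dnmt1, that methyltransferase, was 2.64-fold and 2.13-fold lower (adjusted p = 0.00011 and 0.00073). Both are used in S phase, and the proliferation markers were low in the same groups, as given above, but their part was not tested. Zfp57, the zinc finger protein that guards imprinted control regions, was the one that was higher by its main probe, by 0.87 and 0.58 (adjusted p = 0.0024 and 0.023). A further probe of Smchd1, also on this list, was called higher in WT1-high cells (adjusted p = 0.0075). No WT1-negative array detected that probe, and another Smchd1 probe differed by -0.35 without a call (adjusted p = 0.13). No DNA methylation was measured.

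To set sequence beside these levels, the 250 bases before each RefSeq transcript start were searched on both strands, in GRCm38.p6, for the PLAGL1 motif GGGGCCCC, the cAMP response element TGACGTCA, and the WT1 motif GCGTGGGAG with its shorter core GCGTGGG. Promoters were at hand for 7 of the 9 members, without H19 and Sgce. Peg3 held GGGGCCCC, as did 0.889% of 32851 promoters, and TGACGTCA, as did 1.55%. Gtl2 held TGACGTCA in 1 of its 2 promoters. Neither WT1 motif was found in any member's window, where 0.405% and 4.3% of all promoters held the longer and the shorter one. The windows of both are shown with the matches in capitals.
Peg3, chr7:6730420-6730669, minus strand: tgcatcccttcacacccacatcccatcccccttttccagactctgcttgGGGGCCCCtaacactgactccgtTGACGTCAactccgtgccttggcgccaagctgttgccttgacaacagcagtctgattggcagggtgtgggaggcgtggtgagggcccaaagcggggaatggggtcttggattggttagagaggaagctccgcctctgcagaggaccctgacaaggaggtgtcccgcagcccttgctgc
Gtl2, chr12:109540746-109540995, plus strand: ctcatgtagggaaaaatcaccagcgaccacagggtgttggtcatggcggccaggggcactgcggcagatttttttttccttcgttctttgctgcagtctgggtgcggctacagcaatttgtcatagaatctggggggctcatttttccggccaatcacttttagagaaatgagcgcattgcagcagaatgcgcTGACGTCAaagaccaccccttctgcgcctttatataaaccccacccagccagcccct
A match is a run of letters and not a bound site. Peg3 and Gtl2, which both hold TGACGTCA, differed in how they moved, with Peg3 lower in both WT1-positive groups and Gtl2 called in neither.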

How the data were processed

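RNA of 9 sorted samples was hybridised to Illumina MouseWG-6 v2.0 arrays. The authors deposited a bead-averaged intensity and a detection p-value for each probe, not normalised, with 936 negative control probes apart. From these, limma 3.58.1 in R 4.3.3 corrected the background against the negative controls and quantile normalised the arrays (neqc, offset 16, log2), which assumes like overall distributions in all groups. Probes with a detection p-value below 0.05 on at least 3 arrays were kept (20573), and the 9 arrays together were fitted with the group as the only factor (residual degrees of freedom 6, prior 5.19), with Benjamini-Hochberg adjustment within each comparison. The submitters' processing notes name limma. Steps were tested on simulated data.

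Each gene is given by its main probe, the brightest tested one, and the others are accounted for. List genes are named where called, at most 6 for each list and comparison, with Igf2, Igf2r and Cdkn1c added, and 2 nearest genes for each tested member. Members, lists and motifs were chosen with earlier results of these data known. Summed marker signals are linear, after subtraction of the offset. The labels number animals 1, 8 and 29 for WT1-high and 1, 8 and 30 for WT1-intermediate arrays, and the deposited column of the last is numbered 29. Residuals of same-numbered arrays correlated across probes at 0.35, 0.34 and 0.47 (29 with 30), against -0.39 to 0.03 for the other 6 combinations, so the numbers were read as pairs. The main fit does not use these pairs, which enter only the replicate blocks among the alternatives. The number of arrays limits the precision. Alternatives were other offsets, filters, scalings, probe choices, array weights, replicate blocks and leaving out each array.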

Additional observations from a re-analysis of the deposited data

How the results depend on the processing

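Of the single-gene results under all alternatives, 424 kept direction and side of the threshold, 5 lost and 5 gained a call, and 9 changed sign, of which 1 was called (Grb10, WT1-high against WT1-negative cells, -0.45 with its second brightest probe). That probe also gave -0.37 between WT1-positive groups and -0.08 for WT1-intermediate against WT1-negative cells. Between WT1-positive groups the others were Mest (0.05, second brightest probe), H19 (0.01, a fixed replicate block), and Gtl2 (0.37) and Ndn (0.38) with median scaling. With a replicate block the members called stayed at 0, 6 and 5 for WT1-high against WT1-intermediate, WT1-high against WT1-negative and WT1-intermediate against WT1-negative cells, and the block changed no member's call. Over all probes it raised the first from 730 to between 1520 and 1847. Leaving out each array gave 0 to 0, 6 to 6 and 5 to 6 members. Tested on probes detected on all 9 arrays, only 3 members (Gtl2, Grb10 and Ndn) could be tested, and 2 and 1 were called against WT1-negative cells. Median scaling over all probes called 1 member between WT1-positive groups (Grb10) and 2684 probes in all, and moved the median of all probes to 0.45, and to -0.44 for WT1-intermediate against WT1-negative cells. Median scaling over probes detected on all arrays, chosen after seeing the data, moved that median to 0.27 and called 3 members there, since Dlk1 (-0.53, adjusted p = 0.1) and Mest (-0.71, adjusted p = 0.053) were no longer called. The cause was not tested. Gtl2 in WT1-intermediate against WT1-negative cells was called with cyclic loess (0.56, adjusted p = 0.037) and array weights (0.47, adjusted p = 0.045). With median scaling Gtl2 and Grb10 were -0.17 and -0.31 there, not called. Probes near the detection limit understate differences.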
